A study of Mus musculus with 2 samples.

Results

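Barcodes in which mitochondrial transcripts made up over 10% and at most 50% of the UMIs (unique molecular identifiers, each counting 1 captured RNA molecule) were chosen by that measured share, together with a floor of 1000 UMIs. The rule took 447 of 7178 barcodes of at least 1000 UMIs, 240 of 3279 in the library kept with control IgG and 207 of 3899 in the library kept with aPD-1. They were 7.32% of the IgG barcodes (exact Clopper-Pearson 95% interval 6.45 to 8.26) and 5.31% of the aPD-1 barcodes (4.63 to 6.06). They are called the high-mt barcodes below, and the 2470 IgG and 3533 aPD-1 barcodes with at most 10% mitochondrial UMIs are the reference. The mitochondrial share defined the classes and is not a result. All levels below are therefore shares of the non-mitochondrial UMIs.

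Mitochondrial transcripts are made inside the organelle, behind its own membranes, whereas most messenger RNA lies in the cytosol. A cell whose outer membrane leaks can lose cytosolic RNA and keep mitochondria and nucleus, and a cell with many active mitochondria can also carry a high mitochondrial share. Long noncoding RNAs such as Malat1 stay in the nucleus, and ribosomal protein messages are among the most abundant cytosolic ones. Barcodes with a high mitochondrial share are commonly filtered out as damaged.

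The cells came from tumours of MC38, a mouse colon carcinoma line, in C57BL/6 albino mice. The tumours had been dissociated into small fragments, embedded in collagen in a microfluidic culture chip, and digested on day 6 before tumour cells were sorted by flow cytometry for droplet sequencing with 10x Chromium 3′ chemistry. Viability was assessed before loading, per the labels, and no source used here names the markers of the sort. Both libraries share the line, host strain, culture and sort. The IgG library received a control antibody (clone 2A3) and the aPD-1 library an antibody (clone RMP1-14) against PD-1, an inhibitory receptor of T cells, both at 10 µg/mL. With 1 library per treatment and no replicate, treatment cannot be told apart from library, cells are not replicates, and no test was possible. Intervals are 95% and cover counting error only.

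The deposited matrices held 52720076 UMIs for IgG and 68385785 for aPD-1. The IgG matrix listed no barcode under 500 UMIs, while the aPD-1 matrix also held 515790 barcodes of under 100 UMIs, which gave a profile of free RNA for that library alone (6.02% mitochondrial). No cell barcode was shared between the 240 IgG and the 207 aPD-1 high-mt barcodes, and 18 were shared among all barcodes of at least 1000 UMIs. The labels call the cells tumour cells of a colon carcinoma, yet epithelial markers (Epcam, keratins, claudins and others, 18 genes) gave 0 UMIs in the IgG high-mt barcodes and 3 in those of aPD-1, and 75 and 44 in the reference. The epithelial label was thus not visible in either class.

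High-mt barcodes were shallow in non-mitochondrial RNA. Their median was 3030.5 non-mitochondrial UMIs in IgG and 3494 in aPD-1, against 18630.5 and 15467 in the reference. Their median of mitochondrial UMIs was 682.5 and 680, close to the reference medians of 583 and 591. The classes thus differed far more in the rest of the RNA than in the number of mitochondrial molecules, which is a description, since the rule uses both counts. Depth also changed within the class: median total UMIs were 5846.5 in IgG and 5131 in aPD-1 at 10 to 20% mitochondrial, 2373 and 3272 at 20 to 30%, and 1662 and 1643 at 30 to 50%.

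There was no gap at either bound. At 9 to 10% mitochondrial there were 43 IgG and 33 aPD-1 barcodes, and at 10 to 11% there were 31 and 22. Malat1 was 1.84% of the non-mitochondrial UMIs in IgG and 1.85% in aPD-1 just under the 10% bound, and 2.02% and 1.58% just over it. ER chaperone genes went from 0.642% to 0.943% across the bound in IgG and from 0.326% to 0.417% in aPD-1. At the upper bound, 6 IgG and 4 aPD-1 barcodes lay between 45 and 50%, and 11 and 6 between 50 and 55%.

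The makeup of the mitochondrial transcripts themselves, which the rule did not use, differed slightly between the classes. mt-Nd1, a complex I subunit, was 8.89% of mitochondrial UMIs in the IgG high-mt barcodes against 7.76% in the reference (ratio 1.15, 1.13 to 1.16), and 8.76% against 7.60% in aPD-1 (1.15, 1.13 to 1.17). mt-Co1, a catalytic subunit of cytochrome c oxidase, was 21.0% against 23.3% in IgG (0.903, 0.893 to 0.912) and 21.5% against 24.4% in aPD-1 (0.881, 0.871 to 0.891). Barcodes of over 50% mitochondrial UMIs lay further out on both, with mt-Nd1 at 11.01% and 11.2% and mt-Co1 at 17.4% and 18.5%. mt-Nd2, another complex I subunit, was lower than the reference in both libraries, at ratios of 0.882 and 0.885, so complex I genes did not move as 1 group. mt-Co3 stood at 1.04 in IgG and 0.972 in aPD-1, on opposite sides of 1.

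Across genes, the high-mt profile was shifted as a whole. A gene was called higher or lower when its ratio of high-mt to reference level was at least 1.5-fold, the exact interval of the ratio left out 1, and its mean level was at least 10 CPM, counts scaled to a total of 1000000 non-mitochondrial UMIs. In IgG, 3218 of 7895 genes were called higher (40.8%) and 305 lower (3.86%). In aPD-1, 2842 of 7641 were called higher (37.2%) and 353 lower (4.62%). The same direction was called in both libraries for 2042 higher (27.7%) and 142 lower genes (1.92%) of the 7377 that reached the level filter in both.

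This excess of higher calls depended on the scale. Ribosomal protein messages (all Rpl and Rps genes) took 35.1% of the non-mitochondrial UMIs in the IgG reference and 21.3% in its high-mt barcodes, and 39.2% and 24.8% in aPD-1. The median log2 ratio of all genes tested was 0.47 in IgG and 0.45 in aPD-1. After this median was taken away from every gene, 1187 IgG genes were called higher and 1322 lower, 1307 and 1356 in aPD-1, and 663 and 879 in both libraries. Each list is therefore read below against these medians, on the log2 scale with a pseudocount of 1 CPM. The 2042 genes higher in both had a median longest transcript of 4369 bases, the 142 lower ones 1343 bases and all 7377 tested 3302 bases. Of the 142 lower genes, 39 were Rpl or Rps genes.

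Nuclear noncoding RNA stood highest of the 25 lists that are not cell type markers. Malat1 (GRCm38 chr19:5795690-5802672, minus strand), a long noncoding RNA of nuclear speckles, was at 32244 CPM in IgG high-mt barcodes and 9966 in the reference, a ratio of 3.24 (3.20 to 3.27). In aPD-1 it was at 29856 against 8669 CPM, a ratio of 3.44 (3.40 to 3.49). The level was thus over 3 times that of the reference in both libraries. Neat1, the scaffold of paraspeckles, had ratios of 2.43 (2.26 to 2.60) and 3.33 (3.11 to 3.56), and Kcnq1ot1, an imprinted antisense RNA, 3.72 (3.12 to 4.40) and 2.86 (2.32 to 3.49). Of 5 nuclear retained RNAs tested, 4 were called higher in each library. The other, Pvt1, was at 0.806 (0.385 to 1.49) in IgG and was called lower in aPD-1 at 0.327 (0.106 to 0.765), from 10 and 5 UMIs.

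Single barcodes varied widely around these sums. Malat1 ranged from 0 to 33.4% of a barcode's non-mitochondrial UMIs in the IgG high-mt class, with a median of 3.24% and 10th and 90th percentiles of 0.760% and 11.5%. In aPD-1 the range was 0 to 38.8% with a median of 2.66% and percentiles of 0.662% and 10.8%. The reference medians were 0.883% in IgG and 0.747% in aPD-1, with 90th percentiles of 2.73% and 2.34%, so the classes overlapped. Gm42418 and Gm26917, neighbouring gene models on chromosome 17 known to collect reads from ribosomal RNA (chr17:39846958-39848788 and chr17:39843013-39846341), were named after their values were seen. Gm42418 was at 3033 CPM in IgG high-mt barcodes against 318 (ratio 9.55, 9.18 to 9.93) and at 1461 against 235 in aPD-1 (6.22, 5.86 to 6.60). A few barcodes carried much of it, since the medians per barcode were 0.0813% in IgG and 0.0734% in aPD-1 beside maxima of 24.8% and 20%. Within 2000 to 5000 non-mitochondrial UMIs the aPD-1 ratio of Gm42418 was 0.524, under 1. Another gene model, AY036118, lies inside Gm42418 on the opposite strand, and no source used here states whether counting was by strand, so the values of these genes are uncertain.

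Cytosolic housekeeping messages were low. The list of 39 cytoplasmic ribosomal protein genes was at 11.8% of non-mitochondrial UMIs against 19.6% in the IgG reference (ratio 0.602, 0.599 to 0.606) and at 14.2% against 23.4% in aPD-1 (0.605, 0.601 to 0.608). Within it 27 genes in IgG and 25 in aPD-1 were called lower and none higher, and the list's median log2 ratio was -0.77 in both. Rps14, a small subunit protein, was at 2369 CPM against 5326 in IgG (0.445) and at 2808 against 6772 in aPD-1 (0.415). Rpl11, a large subunit protein, was at 0.869 and 0.879 and was not called. Tpt1, a translationally controlled growth factor, was at 0.467 and 0.440, and Gapdh, the glycolytic enzyme, at 0.772 and 0.614, called lower in aPD-1. Actb, the cytoskeletal actin, stood at 1.01 (0.976 to 1.04) and 1.004 (0.965 to 1.04), so these messages were not reduced alike.

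Nuclear genes for oxidative phosphorylation did not follow the mitochondrial transcripts. The 40 genes summed to 1.54% against 1.93% of non-mitochondrial UMIs in IgG (0.798, 0.786 to 0.811) and to 1.53% against 1.73% in aPD-1 (0.885, 0.869 to 0.901). In IgG 13 were called lower and 1 higher, in aPD-1 4 lower and 1 higher. Atp5c1, the gamma subunit of ATP synthase, was at 0.630 and 0.527, and Ndufb4, a complex I subunit, at 0.603 and 0.618. Sdha, the flavoprotein of complex II, was the 1 gene called higher in both, at 1.78 and 2.08, but was at 0.566 in IgG with a lower bound of 20% mitochondrial.

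The profile did not move steadily with the mitochondrial share. Malat1 climbed from 0.954% of non-mitochondrial UMIs at 0 to 5% mitochondrial to 9.17% at 30 to 50% in IgG, then dropped to 2.81% at 50 to 75% and 0.568% at 75 to 100%. In aPD-1 it went from 0.802% to 9.49%, then to 5.30% and 1.42%. Ribosomal protein messages moved the other way, from 35.5% to 16.1% and back to 38.9% in IgG, and from 39.3% to 13.9% and back to 34.7% in aPD-1. The free RNA of the empty aPD-1 droplets held 0.468% Malat1 and 39.2% ribosomal protein messages. In aPD-1 the most mitochondrial barcodes were thus nearer to free RNA on these measures than the high-mt barcodes were, and the 30 to 50% range was the extreme of the 7 ranges in both libraries.

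**Figure D1:**
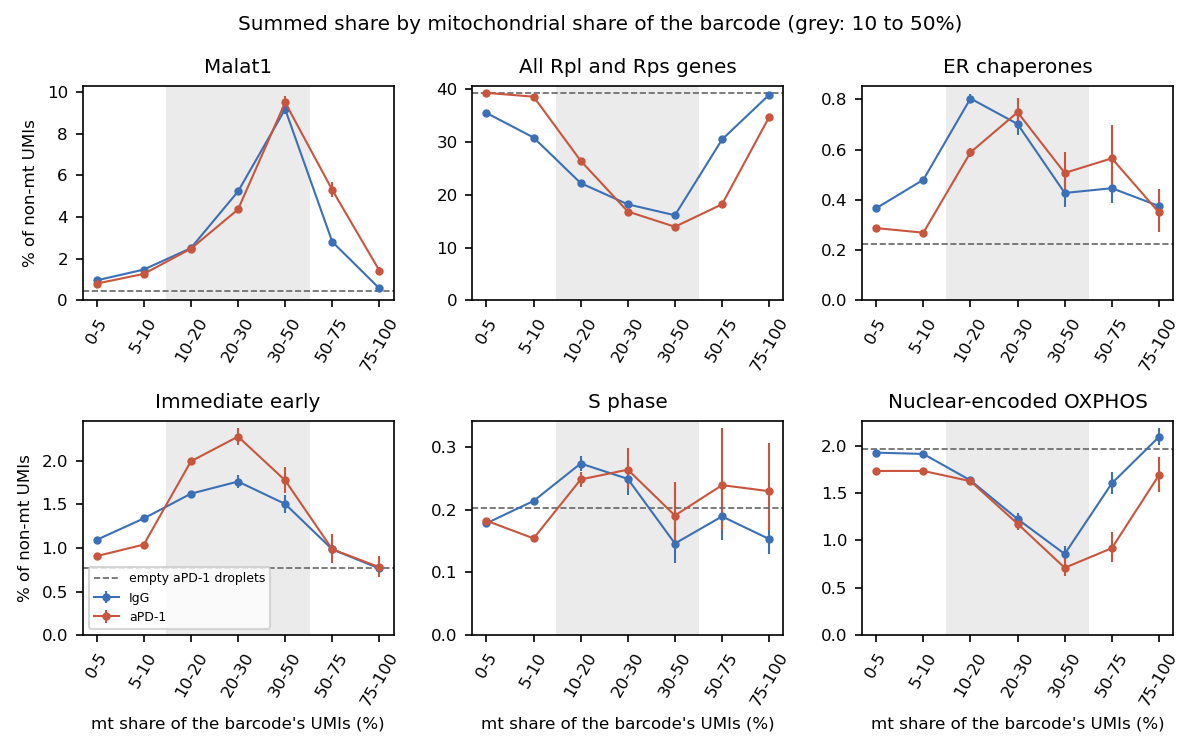
Summed share of non-mitochondrial UMIs (y axis, %) of Malat1, all Rpl and Rps genes and 4 gene lists in 7 ranges of the mitochondrial share of the barcode (x axis, %), with exact 95% intervals, for IgG and aPD-1. The grey band marks the high-mt barcodes and the dashed line the empty aPD-1 droplets. Malat1 peaks at 30 to 50% (9.17% and 9.49%), where ribosomal messages are lowest (16.1% and 13.9%).

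Genes of the endoplasmic reticulum (ER) and its unfolded protein response stood above the general shift in both libraries. These chaperones and folding enzymes are induced when misfolded proteins build up in the ER. The list made up 0.770% of non-mitochondrial UMIs against 0.376% in IgG (ratio 2.05, 2.001 to 2.095) and 0.605% against 0.285% in aPD-1 (2.12, 2.06 to 2.19). Of 20 genes tested, 18 were called higher and none lower in each library, and 16 in both, beside 27.7% of all genes. The list's median log2 ratio was 0.96 in IgG and 1.09 in aPD-1. Relative to the median of all genes, 7 and 11 were called higher and none lower.

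Hspa5 (BiP), the main ER chaperone, was at 1170 CPM in IgG high-mt barcodes against 446 (2.62, 2.47 to 2.78) and at 886 against 282 in aPD-1 (3.14, 2.91 to 3.38). Hyou1, its nucleotide exchange factor, had ratios of 3.76 (2.35 to 5.76) and 3.55 (1.87 to 6.17) from 23 and 13 UMIs. Pdia6, a disulfide isomerase, was at 2.57 and 2.90, and Calr, a lectin chaperone, at 1.93 and 2.15. P4hb and Xbp1 were called higher in IgG, at 1.55 and 1.54, and were not called in aPD-1, at 1.25 and 1.38. After each barcode was thinned to 500 non-mitochondrial UMIs, 50% of IgG high-mt barcodes (43.5 to 56.5) had at least 3 UMIs of the list against 27.9% of the reference (26.1 to 29.7), and 42.0% (35.2 to 49.1) against 16.3% (15.1 to 17.6) in aPD-1. Unthinned, these shares were 90.8% against 96.7% and 87.0% against 98.4%, at the lower depth of the high-mt barcodes. The empty aPD-1 droplets held 0.224% of this list.

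Immediate early genes, the first transcription factors and signalling brakes switched on by stress, dissociation or growth signals, differed between the libraries. In IgG the list was at 1.63% against 1.11% (1.47, 1.45 to 1.49), with 11 of 30 genes called higher, a share below the 40.8% of all genes. Its median log2 ratio of 0.48 lay at the median of all genes. In aPD-1 it was at 2.02% against 0.925% (2.18, 2.15 to 2.22), with 26 of 30 called higher and a median log2 ratio of 1.10. None was called lower in either library. Jun, a subunit of AP-1, was at 3925 CPM against 2480 in IgG (1.58, 1.53 to 1.63) and at 4536 against 1883 in aPD-1 (2.41, 2.33 to 2.49). Fos, its partner, was at 1.14 (1.07 to 1.20) in IgG and 1.94 (1.83 to 2.07) in aPD-1, and Atf3, a stress-induced repressor, at 1.08 (0.789 to 1.44) and 3.07 (2.44 to 3.81). Cyr61, a secreted YAP target, was called higher in both at 2.69 and 4.23, and so was Btg2, an antiproliferative p53 target, at 2.31 and 9.71 from 31 and 48 UMIs, though in IgG at 0.598 within 5000 to 20000 non-mitochondrial UMIs.

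Heat shock genes moved little as a list. Their sum was at 1.43% against 1.28% in IgG and 1.42% against 1.13% in aPD-1, ratios of 1.11 and 1.26, and the IgG ratio went to 0.917 when Rpl and Rps genes were left out of the denominator. In each library 9 genes were called higher (of 21 and 20) and none lower, near the share of all genes, and the list's median log2 ratio lay 0.04 and 0.06 above that of all genes. Hspa1b, the inducible Hsp70, was at 240 CPM against 77.4 in IgG (3.10, 2.71 to 3.54) and at 285 against 31.9 in aPD-1 (8.92, 7.75 to 10.2). Its near-identical copy Hspa1a can share its reads and gave 8 and 2 UMIs. Hsph1, an Hsp110 chaperone, was at 2.48 and 4.57, while Hspe1, the mitochondrial Hsp10, was at 0.718 (0.676 to 0.762) and 0.859 (0.811 to 0.909).

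Other stress programmes lay near the median of all genes or under it. ATF4 targets, the amino acid and integrated stress response, were at 1.30 and 1.32, with 9 of 24 called higher in each library and a median log2 ratio of 0.47 and 0.45, the same to 2 decimals as that of all genes. Gdf15, a stress cytokine of this list, was at 2.48 and 3.34 and Slc7a11, the cystine transporter, at 2.22 and 2.83, while Ddit3 (CHOP) reached 1.27 and 1.35 and was not called. NRF2 targets, the antioxidant programme, were at 0.795 and 0.790. The members of that list split, with Gpx1, a glutathione peroxidase, called lower in both at 0.506 and 0.460, and Gclc, which makes glutathione precursors, called higher at 1.82 and 3.43. Hypoxia genes summed to 1.06 and 1.07, and without Rpl and Rps genes in the denominator to 0.871 and 0.865. Slc2a1, the glucose transporter, was at 2.03 in both and Bnip3, a mitophagy receptor, at 0.576 and 0.390.

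p53 targets were at 1.22 in IgG (1.15 to 1.28) and 1.37 in aPD-1 (1.30 to 1.45), with 10 and 11 of 22 called higher and 1 lower in each. These shares lie near the 40.8% and 37.2% of all genes in IgG and somewhat above in aPD-1, and relative to the median of all genes 3 and 4 were called higher and 3 and 5 lower. Mdm2, the p53 ubiquitin ligase, was at 1.63 and 1.85 and Rrm2b, the p53-induced ribonucleotide reductase subunit, at 3.54 and 4.52. Cdkn1a (p21), a main p53 target, was not called, at 0.959 (0.720 to 1.25) and 0.887 (0.681 to 1.14). Ccng1, another target, was called lower, at 0.563 and 0.411 from 13 and 8 UMIs. The targets thus did not move together.

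The lists of death genes showed no common direction. Anti-apoptotic BCL2 family genes, which guard the mitochondrial outer membrane, were at 1.34 (1.20 to 1.498) and 1.70 (1.52 to 1.90), but under 1 in both libraries within 5000 to 20000 non-mitochondrial UMIs (0.751 and 0.863). They rest on 329 and 328 UMIs and on 3 and 4 genes tested. Bcl2 itself was called higher in both, at 2.54 (1.67 to 3.71) and 3.71 (2.56 to 5.21). Mcl1 was at 1.18 in IgG and 1.64 in aPD-1 (0.793 in that depth range), and Bcl2l1 at 1.71 and 1.07, each called in 1 library. Pro-apoptotic members, which promote the opening of that membrane, were under 1 as a sum, at 0.811 (0.750 to 0.876) and 0.707 (0.645 to 0.773). Of 10 tested, none was called higher and 1 lower in IgG, and 1 higher and 3 lower in aPD-1. The 1 called lower in both was Bnip3, also of the hypoxia list, at 0.576 and 0.390. The list's median log2 ratio differed from that of all genes by -0.77 and -0.67. Relative to the median of all genes, 6 were called lower in each library, with none higher in IgG and 1 in aPD-1. Bax, a pore-forming member, was at 0.750 and 0.863, Bad at 0.672 and 0.558, and Bbc3 (PUMA) at 1.36 and 1.08. Bcl2l11 (BIM) was at 1.46 and 2.16. Pmaip1 (NOXA) had 0 UMIs in the high-mt barcodes of both libraries, which allows up to 3.05 CPM in IgG and 3.73 in aPD-1, above its reference levels.

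Caspases, the apoptosome and inhibitors of apoptosis summed to 1.24 (1.18 to 1.31) in IgG and 1.18 (1.11 to 1.25) in aPD-1, and to 1.03 and 0.953 without Rpl and Rps genes in the denominator. They had 9 of 19 and 7 of 18 genes called higher and none lower, near the share of all genes, and a median log2 ratio 0.01 above that of all genes in IgG and different by -0.06 in aPD-1. Those called higher in both included Birc2 (cIAP1), a ubiquitin ligase that keeps TNF signalling from killing, at 3.27 (2.74 to 3.89) and 3.26 (2.59 to 4.05), and Birc6 at 2.52 and 2.02. Casp8, the initiator below death receptors, was at 1.14 and 0.921. Cycs, the cytochrome c whose release starts the apoptosome, was at 0.673 and 0.783. Death receptor and necroptosis genes were at 1.04 (0.972 to 1.11; 0.856 without Rpl and Rps genes in the denominator) and 1.39 (1.31 to 1.48), with 2 of 12 and 5 of 11 called higher and none called in both. All genes gave 40.8% and 37.2% called higher, and this list's median log2 ratio differed from theirs by -0.21 and 0.14. Pyroptosis and ferroptosis genes were at 1.26 and 1.49, with 8 of 14 and 7 of 11 called higher, among them Ptgs2, the prostaglandin synthase COX-2, at 2.15 and 4.65. Their median log2 ratio lay 0.31 and 0.38 above that of all genes. Relative to the median of all genes, 5 and 3 were called higher and 2 and 1 lower.

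NF-kB targets and chemokines were at 0.918% against 0.572% in IgG (1.60, 1.57 to 1.64) and at 1.27% against 0.528% in aPD-1 (2.40, 2.35 to 2.44), with 13 of 23 and 15 of 22 called higher and none lower. Without Rpl and Rps genes in the denominator the ratios were 1.32 and 1.94. All genes gave 40.8% and 37.2% called higher. Relative to their median, 4 and 13 NF-kB genes were called higher and none lower. The list's median log2 ratios were 0.62 and 1.17, which is 0.14 and 0.73 above the median of all genes. In aPD-1 the medians of replication histones (0.79 above), secreted matrix (0.52), pyroptosis and ferroptosis (0.38) and p53 targets (0.28) also lay above it. In IgG, in the same order, they differed from it by -0.06, 0.44, 0.31 and 0.09. Cxcl2, a neutrophil chemokine, was at 2.12 and 6.58 and Nfkb1, the p50 precursor, at 2.03 and 2.17; both genes were named after their values were seen. Secreted matrix genes were at 1.44 and 1.61 (1.19 and 1.30 without Rpl and Rps genes in the denominator), with 13 and 14 of 21 called higher, among them Lamb1, a laminin chain, at 3.37 and 3.22. Relative to the median of all genes, 8 and 9 matrix genes were called higher and 1 lower in each library. Type I interferon genes were at 1.20 and 1.53, at 0.990 and 1.23 without Rpl and Rps genes in the denominator, and at 0.817 and 1.12 within 5000 to 20000 non-mitochondrial UMIs.

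Cell cycle genes in the sums lay near the shift. S-phase genes, of DNA replication, were at 0.264% against 0.182% in IgG (1.45, 1.40 to 1.51) and at 0.248% against 0.179% in aPD-1 (1.39, 1.33 to 1.45), with 19 of 37 and 14 of 39 called higher. G2/M genes, of mitosis, were at 1.24 in both (1.21 to 1.28 and 1.20 to 1.28), with 18 of 48 and 20 of 47 called higher; without Rpl and Rps genes in the denominator the ratios were 1.02 and 0.999, and with a lower bound of 20% mitochondrial the IgG ratio was 0.972. Set beside the 40.8% and 37.2% of all genes, these shares of called genes did not stand apart, and the lists' median log2 ratios of 0.62 and 0.55 for S phase and 0.37 and 0.45 for G2/M lay within 0.15 of the median of all genes. Top2a, the topoisomerase of dividing cells, was at 2.30 (1.99 to 2.64) and 2.58 (2.27 to 2.92), Mki67 at 1.99 and 2.56, and Dtl, a replication licensing regulator, at 3.06 and 3.37. Ccnb1, the mitotic cyclin, was at 1.45 and 1.58, while Pcna, the replication clamp, was not called at 1.07 and 1.34, and Cenpa and Ube2c, both mitotic, were at 0.700 and 0.785 in IgG and 0.767 and 0.740 in aPD-1. Cdkn2a, which encodes the cell cycle inhibitor p16, was at 3.08 (2.47 to 3.80) and 3.54 (2.79 to 4.43).

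Replication histones differed between the libraries: 0.0681% against 0.0590% in IgG (1.15, 1.07 to 1.25, and 0.952 without Rpl and Rps genes in the denominator) and 0.130% against 0.0602% in aPD-1 (2.16, 2.03 to 2.30). In IgG 3 of 8 genes were called higher and 1 lower, and in aPD-1 7 of 9 higher and none lower. From 500 to 2000 non-mitochondrial UMIs, without clusters named as another cell type, the ratios were under 1, at 0.713 (0.491 to 1.04) and 0.881 (0.666 to 1.16), with none called higher, and from 5000 to 20000 they were 1.40 and 2.15. In that deepest range Hist1h2bc, a member of the list, was called lower in both libraries, at 0.373 (0.259 to 0.520) and 0.336 (0.192 to 0.547). Over all depths the linker histone gene Hist1h1e was at 1.84 and 3.81. Most replication histone messages lack a poly(A) tail, and near-identical histone genes can share reads, so this list is uncertain in a poly(A)-primed assay.

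**Figure D2:**
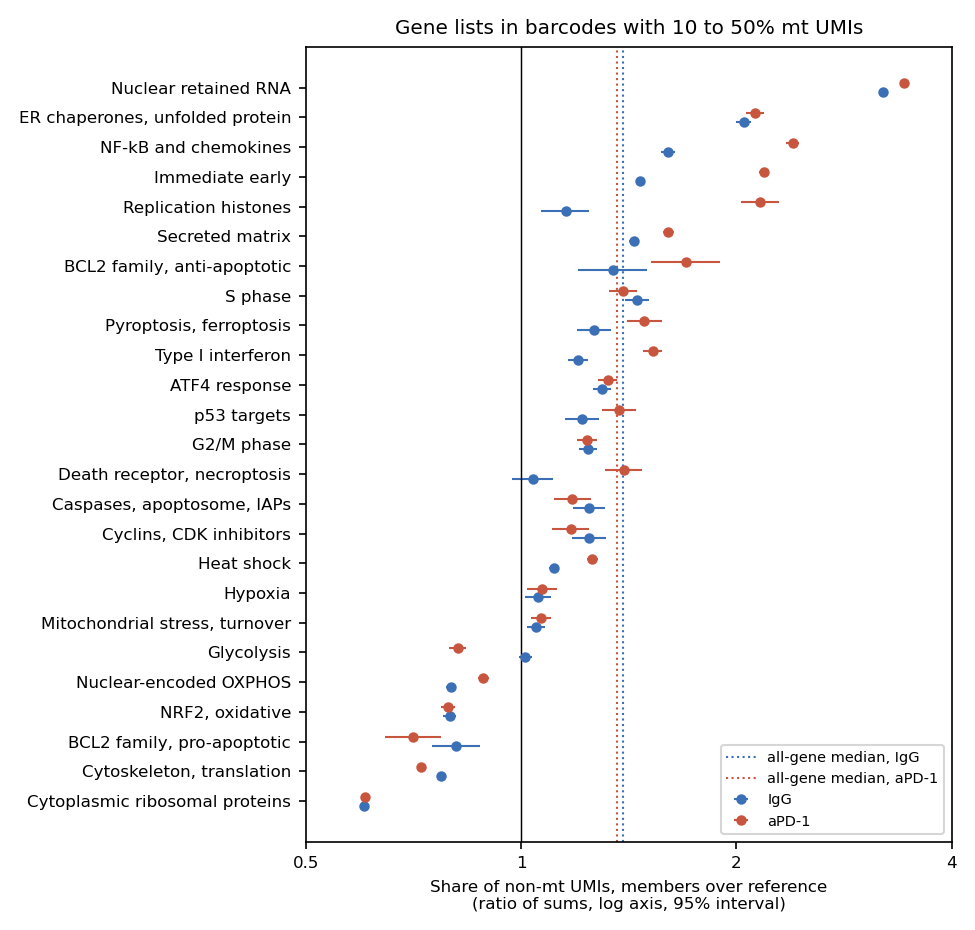
Ratio of the summed share of non-mitochondrial UMIs in high-mt barcodes over the reference (x axis, log scale) for 25 gene lists, with exact 95% intervals of counting error. Dotted lines mark the median of the single-gene ratios over all genes tested in each library, a different measure from these ratios of sums. By its own median log2 ratio, the IgG immediate early list lay at the median of all genes. Nuclear RNA, ER, NF-kB, immediate early and secreted matrix lists lie to the right of both lines in both libraries, as do, among others, S phase in IgG and histones, anti-apoptotic BCL2 and interferon genes in aPD-1, and ribosomal proteins lie farthest left at 0.602 and 0.605.

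Because depth and mitochondrial share moved together, the classes were also compared within ranges of non-mitochondrial UMIs, without clusters named as another cell type; these ranges were set after the data had been seen. From 500 to 2000 UMIs there were 91 IgG and 55 aPD-1 high-mt barcodes beside 63 and 77 reference barcodes. From 2000 to 5000 there were 70 and 89 beside 87 and 99, and from 5000 to 20000 there were 72 and 61 beside 1067 and 2302. In the deepest range depth was still not equal, with medians of 7302.5 and 6490 against 13993 and 13350. Among high-mt barcodes the mitochondrial share was lowest there, at medians of 11.8% and 13.03%, against 27.0% and 27.3% in the shallowest range. In the reference it was higher in the deepest range, at medians of 3.51% and 3.98%, than in the shallowest, at 0.979% and 0.658%.

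The nuclear RNA signal belonged mainly to the shallow barcodes. Malat1 was at 3.51 (3.35 to 3.69) and 4.61 (4.37 to 4.87) times the reference in IgG and aPD-1 from 500 to 2000 UMIs, at 1.88 and 1.45 from 2000 to 5000, and at 1.22 (1.19 to 1.24) and 1.40 (1.36 to 1.43) from 5000 to 20000. Ribosomal proteins were lower in every range, at 0.520 and 0.408, 0.622 and 0.608, and 0.660 and 0.677. Gapdh was at 0.445 and 0.380 in the shallowest range and at 1.08 and 0.842 in the deepest. Nuclear oxidative phosphorylation genes went from 0.556 and 0.537 to 0.938 and 1.03. Gm26917, higher over all depths, was lower than in the reference from 500 to 2000 UMIs, at 0.364 and 0.348, where the reference itself held 18384 and 9098 CPM, and in aPD-1 also from 2000 to 5000, at 0.175.

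Proliferation genes showed the opposite order. S-phase genes were at 0.775 (0.623 to 0.964) and 1.01 (0.803 to 1.27) in the shallowest range, 1.42 and 1.77 in the middle one, and 2.53 (2.41 to 2.65) and 2.14 (2.02 to 2.27) in the deepest. G2/M genes went from 0.624 and 0.858 through 1.40 and 1.38 to 1.85 (1.79 to 1.92) and 1.77 (1.69 to 1.84). In the deepest range 35 of 38 S-phase genes in IgG and 29 of 38 in aPD-1 were called higher, and 39 and 33 of 50 G2/M genes, with none called lower. All genes tested there gave 28% called higher and 3.91% lower in IgG, and 26.9% and 3.69% in aPD-1. ER genes were higher in all 3 ranges, at 1.98 and 1.80, 1.89 and 1.91, and 2.42 and 2.70, with 15 and 16 of 20 called higher in the deepest. Immediate early genes went from 1.69 and 1.64 in the shallowest range to 1.04 and 1.31 in the deepest, and anti-apoptotic BCL2 genes from 3.10 and 2.73 to 0.751 (0.629 to 0.890) and 0.863 (0.706 to 1.04).

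In the deepest range the highest genes of the naming rule were replication and mitosis genes to a large part. Rrm2, the S-phase ribonucleotide reductase subunit, was at 267 CPM against 48.4 in IgG (5.52, 4.62 to 6.57) and at 226 against 42.3 in aPD-1 (5.34, 4.29 to 6.57). Top2a was at 4.14 and 4.88, Mcm2, a helicase subunit, at 4.45 and 3.88, and Nek2, a centrosome kinase, at 4.67 and 5.24. Rad54l, Wdhd1, Fignl1, Dtl and Cdc7, which act in DNA replication or repair, lay between 3.90 and 8.29 in both libraries. Lpl, lipoprotein lipase, was at 8.45 and 3.96. The lowest included Ndufa4l2, a hypoxia-induced mitochondrial gene, at 0.0820 (0.00207 to 0.461) and 0.230 (0.0278 to 0.836), and Tpt1 at 0.457 and 0.450. The Ndufa4l2 ratios rest on very few UMIs, at 1.67 and 4.70 CPM in the high-mt barcodes. Over all depths, Rrm2 was at 186 CPM in high-mt barcodes against 80.4 in the IgG reference, and at 162 against 73.0 in aPD-1. The reference of the deepest range thus held less Rrm2 than the whole reference, while the high-mt barcodes of that range held more than the whole class.

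**Figure D3:**
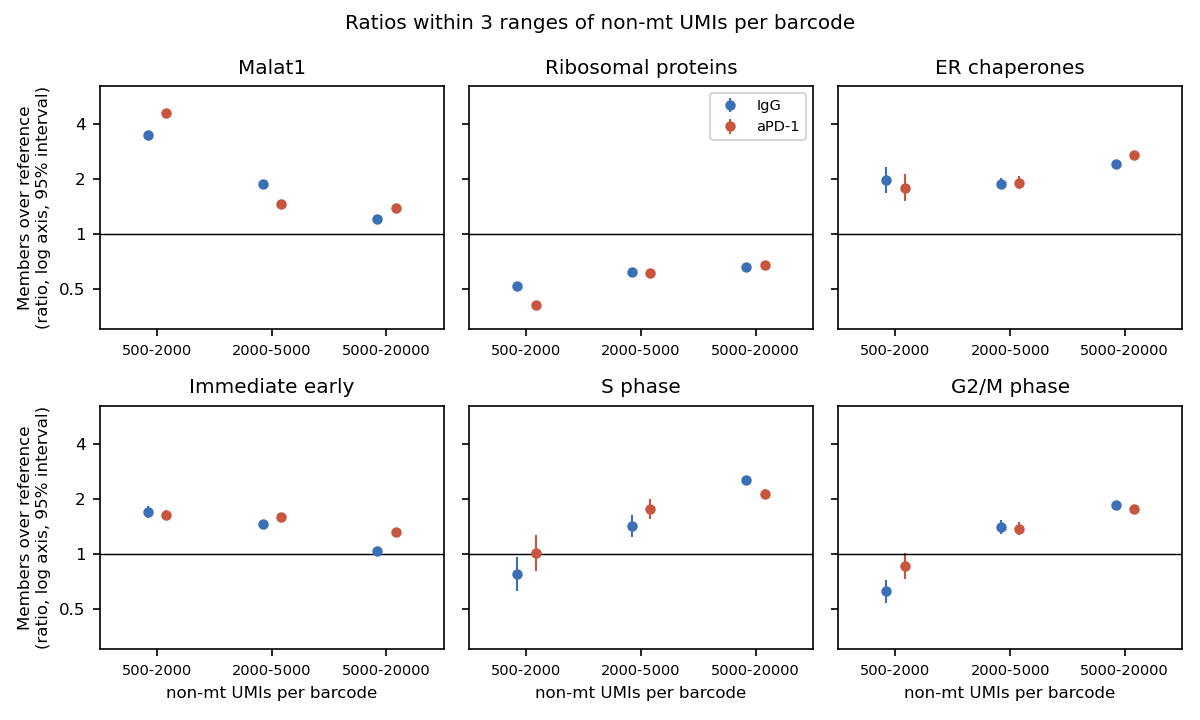
Ratio of the summed share in high-mt barcodes over the reference (y axis, log scale, exact 95% intervals) within 3 ranges of non-mitochondrial UMIs per barcode (x axis), for 6 genes or lists. Malat1 comes down towards 1 with depth (3.51 and 4.61 to 1.22 and 1.40) while S phase goes up (0.775 and 1.01 to 2.53 and 2.14), and ER genes lie above 1 and ribosomal proteins under 1 in all ranges. Reference barcodes above the deepest range are left out.

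At a fixed 500 non-mitochondrial UMIs per barcode, with no barcode left out, high-mt barcodes showed a median of 377 genes in IgG and 359 in aPD-1, against 339 and 324 in the reference. At least 3 S-phase UMIs were found in 11.25% of IgG high-mt barcodes (7.55 to 15.9) against 7.33% of the reference (6.33 to 8.43), and in 14.5% (9.997 to 20.04) against 7.22% (6.39 to 8.12) in aPD-1. For G2/M genes the shares were 33.3% (27.4 to 39.7) against 26.4% (24.7 to 28.2) and 28.0% (22.0 to 34.7) against 26.8% (25.4 to 28.3). The intervals of the classes overlapped for G2/M in both libraries and for S phase in IgG. At 2000 UMIs per barcode, which left out 94 and 57 high-mt and 188 and 83 reference barcodes, G2/M was found in 84.9% (78.1 to 90.3) against 70.6% (68.7 to 72.5) in IgG and 86% (79.4 to 91.1) against 70.6% (69.1 to 72.2) in aPD-1. The S-phase shares at that depth were 63.7% against 45.6% and 66.7% against 47.4%, so these intervals did not overlap. For p53 targets at 500 UMIs the shares were 7.08% against 2.83% and 7.25% against 2.46%. Unthinned, the S-phase shares were 63.3% against 90.5% and 72.9% against 93.5%, the G2/M shares 80.8% against 94.3% and 85.5% against 98.2%, and the p53 shares 63.8% against 93.1% and 72.9% against 97.3%, at unequal depth.

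Clustered on non-mitochondrial genes only, the high-mt barcodes gathered in 1 of 10 clusters. Cluster 2 held 177 of 240 in IgG (73.8%, 67.7 to 79.2) and 170 of 207 in aPD-1 (82.1%, 76.2 to 87.1), and they were 52.8% and 63.4% of its barcodes. Its leading genes were Gm26917, Gm42418, B930036N10Rik, Lars2 and Hspa1b, none of them a fixed cell type marker, so it stays unnamed. These genes defined the cluster and are not a result. The other clusters held between 0% and 7.69% high-mt barcodes, apart from the 6 aPD-1 barcodes of the macrophage-like cluster, 2 of which were high-mt.

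Cluster 2 also held 158 IgG and 98 aPD-1 reference barcodes with median mitochondrial shares of 6.05% and 5.89%, against 2.74% and 3.54% for reference barcodes elsewhere. Malat1 in the IgG library was at 39078 CPM in its high-mt barcodes, 14730 in its reference barcodes, 20484 in high-mt barcodes of other clusters and 9778 in the rest of the reference. In aPD-1 the same 4 values were 32871, 16706, 20121 and 8581 CPM. High-mt barcodes outside cluster 2 thus also stood above the reference, and reference barcodes inside it did too.

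**Figure D4:**
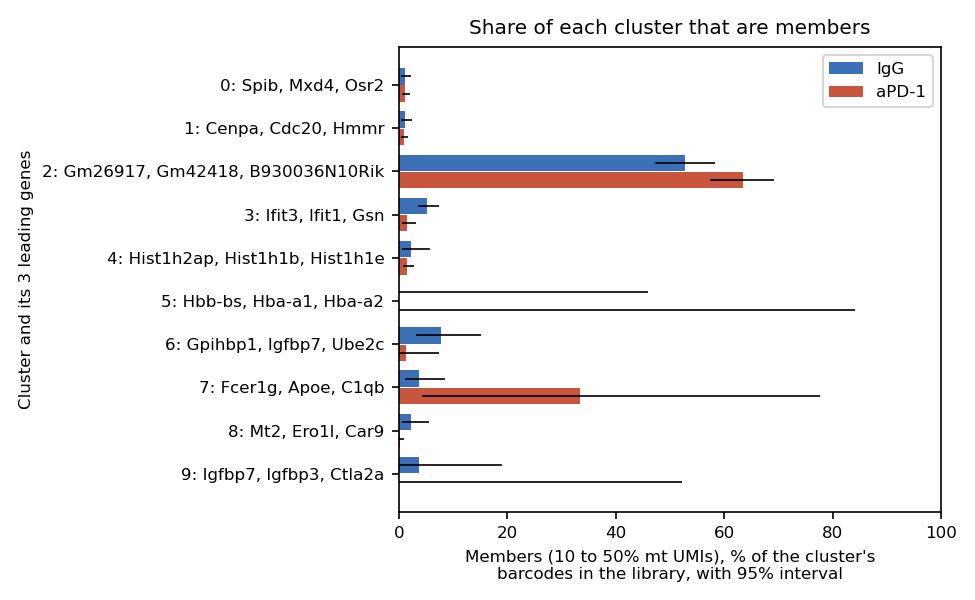
Share of each cluster's barcodes that were high-mt (x axis, %, exact 95% intervals), by library, for 10 clusters labelled with their 3 leading genes (y axis). Cluster 2 holds 52.8% in IgG and 63.4% in aPD-1; the wide intervals of clusters 5, 7 and 9 come from few barcodes.

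At a finer resolution of 1.0 most of the high-mt barcodes lay in 2 clusters with different profiles in both libraries. Cluster 3, led by Rrm2, Hspa5, Pdia6 and Mcm2, held 116 in IgG and 94 in aPD-1, and cluster 12, led by Gm26917 and Gm42418, held 68 and 85. The rest lay in other clusters, among them 26 in IgG and 3 in aPD-1 in cluster 5, which its markers named fibroblast-like. ER genes were 0.997% and 1.02% of non-mitochondrial UMIs in the high-mt barcodes of cluster 3 and 0.286% and 0.232% in those of cluster 12. Immediate early genes were 1.29% and 1.19% in cluster 3 and 3.14% and 3.26% in cluster 12, and S-phase genes 0.368% and 0.310% against 0.157% and 0.194%. These genes took part in the clustering, so the values describe the profiles and support nothing further. Malat1 was high in both, at 35510 and 30033 CPM in cluster 3 and 45614 and 36450 in cluster 12, and ribosomal protein messages were low in both, at 18.0% and 19.0%, and 23.7% and 27.5%.

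By the naming rule, the genes with the largest ratios in both libraries over all depths were Hist4h4, Mttp, Lars2, Spaca6, Acox3, Ogt, Dnm3os, Igf2bp3, Phc3, Rccd1, Gdap10 and Zfp442. Apart from Ogt and Dnm3os, they rest on 19 to 87 UMIs per library in the high-mt barcodes, and Hist4h4 can share reads with other histone genes. Ogt, which attaches O-GlcNAc to nuclear and cytosolic proteins, was the deepest, at 249 CPM against 57.7 in IgG (4.31, 3.77 to 4.92) and at 271 against 64.3 in aPD-1 (4.22, 3.66 to 4.83). Dnm3os, a noncoding host of microRNAs, was at 4.10 (3.25 to 5.11) and 6.00 (4.93 to 7.24). Lars2, the mitochondrial leucyl-tRNA synthetase, was at 7.75 (6.11 to 9.73) and 5.33 (3.69 to 7.48), and Mttp, the microsomal lipid transfer protein, at 7.50 and 7.82 from 28 and 24 UMIs.

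The genes with the lowest ratios were Prelid2, Chchd5, Btf3, Tpt1, Gbas, Lgals3, Cox7a2l, Mettl10, Gpx1, Chchd7, Immp1l and Wdr55. Btf3, a factor of the nascent chain complex, was at 566 CPM against 1223 in IgG (0.463, 0.425 to 0.503) and at 577 against 1247 in aPD-1 (0.463, 0.422 to 0.507). Lgals3, galectin-3, was at 678 against 1371 (0.495, 0.458 to 0.534) and 774 against 1655 (0.467, 0.431 to 0.506). Cox7a2l, a respiratory supercomplex factor, was at 0.498 and 0.366. Gbas, Mettl10 and Wdr55 rest on 7 to 11 UMIs.

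Between the high-mt barcodes of the libraries, 275 of 8227 genes were called higher in aPD-1 than in IgG (3.34%) and 575 lower (6.99%), with a median log2 ratio of -0.12. Immediate early genes were 2.02% in aPD-1 and 1.63% in IgG (aPD-1 over IgG 1.24, 1.21 to 1.26), while in the reference they were 0.925% and 1.11% (0.831, 0.828 to 0.834). Within 5000 to 20000 non-mitochondrial UMIs the high-mt ratio was 0.998 (0.965 to 1.03) beside 0.790 (0.785 to 0.794) in the reference. From 500 to 2000 it was 1.47 beside 1.51 in the reference. NF-kB genes were at 1.38 (1.34 to 1.42) in high-mt barcodes and 0.923 in the reference, and the high-mt ratio was above 1 in all 3 depth ranges, at 1.86, 1.29 and 1.20. ER genes were lower in aPD-1 in both classes, at 0.786 and 0.758, and so was glycolysis, at 0.725 and 0.9004.

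Replication histones were at 1.91 (1.73 to 2.11) in aPD-1 over IgG among high-mt barcodes, with 7 of 11 called higher, and at 1.02 in the reference. Within 500 to 2000 non-mitochondrial UMIs the same ratio was 2.32 (1.64 to 3.30) in high-mt barcodes and 1.88 (1.39 to 2.57) in the reference, with overlapping intervals, and from 5000 to 20000 it was 1.44 (1.26 to 1.65) and 0.943 (0.916 to 0.970). By the naming rule the highest genes of this comparison were Grem1 (5.77), Oscp1 (6.12), Hist1h4d (4.65), Pbld2, Cpne7 and Il1rl1, on 15 to 36 UMIs in aPD-1. The lowest were Igfbp3, C1qa, Lyz2, Tyrobp, C1qc and Eln. Igfbp3, an IGF-binding protein, had 31 UMIs in the IgG class, while the aPD-1 class had 0. C1qa, C1qc, Lyz2 and Tyrobp mark macrophages.

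Markers of other cell types differed in amount and between libraries. Fibroblast markers (13 genes) gave the most, 2223 UMIs in IgG high-mt barcodes and 1355 in aPD-1, at 1.63 (1.56 to 1.70) and 1.76 (1.67 to 1.86) times the reference, with 5 and 6 of 10 called higher. All genes gave 40.8% and 37.2% called higher, and the list's median log2 ratio lay 0.10 and 0.48 above theirs. Relative to the median of all genes, 3 were called higher and 2 lower in IgG, and 5 higher and 0 lower in aPD-1. Within depth ranges the fibroblast marker ratios were 3.50 and 3.74 from 500 to 2000 non-mitochondrial UMIs, 1.49 and 1.60 from 2000 to 5000, and 1.14 and 1.06 from 5000 to 20000. The part of these markers in the matrix list was not tested. Neutrophil markers (8 genes) were at 2.82 in both libraries, from 260 and 132 UMIs, of which Mmp9, a gelatinase, gave 244 and 126. The macrophage list (15 genes) gave 417 UMIs in IgG high-mt barcodes, 0.0424% of their non-mitochondrial UMIs against 0.0207% in the reference, and 53 UMIs in aPD-1 (0.00659% against 0.00251%). The IgG values of C1qa, C1qc, Lyz2 and Tyrobp rest on few barcodes: the macrophage-like cluster held 5 IgG and 2 aPD-1 high-mt barcodes, and with every barcode weighted equally the 4 ratios were 0.403, 0.399, 0.397 and 0.328. T and NK markers (16 genes) gave 3 and 8 UMIs, B and plasma markers 16 and 6, and mast cell markers 0 in both. The endothelial-like cluster held 1 IgG high-mt barcode and the erythroid-like cluster none. Haemoglobin genes gave 258 UMIs in aPD-1 high-mt barcodes, all in 1 barcode, and 11 UMIs in 11 barcodes in IgG. With the clusters named at resolution 0.5 left out, none of which was fibroblast-like, 3226 genes in IgG and 2853 in aPD-1 were called higher. The part of these cells in single ratios was not tested beyond that.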

How the data were processed

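Both deposited matrices contain raw UMI counts, made with Cell Ranger 3.0.2 per the file headers; mm10 and Seurat 2.1.0 are named in the submitters' processing notes. Which annotation and strand setting were used is not stated there, so overlapping and near-identical genes (histones, Hspa1a and Hspa1b, Rpl and Rps pseudogenes) are uncertain. The members and lists were chosen with earlier results of these data known.

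Counts were summed per library and class and divided by the non-mitochondrial total. Ratios carry exact conditional binomial 95% intervals and shares Clopper-Pearson intervals, so deeper sums are more precise. The classes sum to 983760 and 803819 non-mitochondrial UMIs for high-mt barcodes and to 48456824 and 59706560 for the reference. Medians used log2 ratios with a pseudocount of 1 CPM. The steps were tested on simulated counts. Clustering used scanpy 1.11.5 on log counts per 10000 without mt- genes, with 2000 variable genes, 30 components, 15 neighbours and leiden at resolution 0.5. A cluster was named from at least 3 listed markers among its top 10 genes. Doublets were neither called nor removed.

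Named genes are up to 12 highest and 12 lowest called in both libraries (without ribosomal, haemoglobin and unnamed models), up to 4 extreme members per list, a fixed set of death, stress and cell cycle genes, and 6 highest and 6 lowest between libraries. Others were named after their values were seen or to say which members of a list were called. Some genes the rule names are not reported here. Of 713 listed symbols, 8 were unmatched. Coordinates and lengths are from GENCODE on GRCm38, which had 28339 of 28692 identifiers.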

Additional observations from a re-analysis of the deposited data

Results flagged for a closer look

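The results in this section are those in which 1 class or library went against the other. None of these differences was tested, since each treatment has 1 library.

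In 6 gene lists the aPD-1 level was above the IgG level among high-mt barcodes and below it in the reference. The ratios of aPD-1 over IgG among high-mt barcodes were 1.24 for immediate early genes, 1.22 for anti-apoptotic BCL2 genes, 1.15 for pyroptosis and ferroptosis genes, 1.04 for secreted matrix genes, 1.25 for type I interferon genes and 1.38 for NF-kB genes. The same ratios in the reference were 0.831, 0.964, 0.979, 0.930, 0.982 and 0.923. The contrast between the classes was not the same at every depth. At 5000 to 20000 non-mitochondrial UMIs the high-mt ratios were, in the same order, 0.998, 1.09, 1.10, 0.987, 1.25 and 1.20. The intervals of immediate early (0.965 to 1.03), BCL2 (0.840 to 1.41), pyroptosis (0.981 to 1.23) and matrix genes (0.956 to 1.02) included 1. In the reference of that range the 6 ratios lay between 0.790 and 0.957, all under 1. Each high-mt ratio there was above the reference ratio of its list, with overlapping intervals for BCL2 genes (reference 0.916 to 0.985). The reference was above 1 for some of these lists in shallower ranges. From 500 to 2000 it was at 1.51 (1.40 to 1.63) for immediate early and 1.20 (1.03 to 1.40) for interferon genes. BCL2 (1.02), pyroptosis (1.04), matrix (1.04) and NF-kB genes (0.991) had intervals that included 1 there. From 2000 to 5000 the reference was at 1.18 (1.13 to 1.22) for immediate early genes and 0.878 (0.837 to 0.921) for matrix genes. In that range the intervals of BCL2 (1.15), interferon (1.06), NF-kB (1.05) and pyroptosis genes (0.991) included 1. The high-mt interferon ratio was 0.980 from 2000 to 5000.

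In 4 genes the high-mt barcodes were called above the reference in aPD-1 and below it in IgG. Hbb-bs was at 4.49 in aPD-1 and 0.0392 in IgG, Hba-a1 at 6.75 and 0.0526, and Hba-a2 at 8.11 and 0.0989. All 258 haemoglobin UMIs of the aPD-1 high-mt barcodes lay in 1 barcode, and without it the level was 0. The fourth gene, 2810001G20Rik, was at 1.75 in aPD-1 (1.20 to 2.48) and 0.511 in IgG (0.254 to 0.918).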

How the results depend on the processing

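Results are given as IgG then aPD-1 unless named. The only members of 10 to 15% mitochondrial, the removal of the aPD-1 barcode with most haemoglobin, the depth ranges and the split by cluster were chosen after seeing the data. No paired analysis was possible because the labels give no replicate numbers and each treatment has 1 library.

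Counts of called genes moved most. Centred on the median of all genes, 1187 and 1307 genes were called higher and 1322 and 1356 lower, 663 higher and 879 lower in both. Without Rpl and Rps genes in the denominator the counts were 2030 and 1839 higher, 731 and 935 lower, 1129 and 438 in both. At a level of at least 50 CPM, 992 and 971 were higher, 227 lower in aPD-1 and 709 higher in both. With every barcode weighted equally, 776 and 701 were lower, 321 in both. With a lower bound of 20% mitochondrial, 587 IgG genes were lower, and 1306 higher and 304 lower in both. With only 5000 to 20000 non-mitochondrial UMIs, 1146 were higher in both, and with only members of 10 to 15% 1090 were higher and 78 lower in both.

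The main list ratios crossed the 1.5-fold bound as follows. With the lower bound of 20%, IgG immediate early genes were at 1.52, IgG caspase genes at 1.51 and aPD-1 p53 targets at 1.56. Weighted equally, IgG immediate early genes were at 1.52. At 5000 to 20000 non-mitochondrial UMIs, S phase was at 2.53 and 2.14, G2/M at 1.85 and 1.77, nuclear retained RNA at 1.21 and 1.41, aPD-1 immediate early genes at 1.31, aPD-1 ribosomal proteins at 0.677 and aPD-1 anti-apoptotic BCL2 genes, now in the opposite direction, at 0.863. With only members of 10 to 15%, IgG S phase was at 1.66 and aPD-1 ribosomal proteins at 0.682. Other lists crossed it too. Without Rpl and Rps genes in the denominator, 4 fell within the bound (IgG NF-kB 1.32, aPD-1 anti-apoptotic BCL2 1.37, secreted matrix 1.30 and interferon 1.23) and 7 passed it on the lower side. With the lower bound of 20%, 13 lists passed the bound on the side of 1 where they already lay, the 3 above included. IgG glycolysis genes, at 1.01 in the main setting, passed it on the lower side at 0.624. At this setting aPD-1 interferon genes, at 1.43, fell within the bound. ER genes lay between 1.66 and 2.41 in IgG and 1.72 and 2.70 in aPD-1 over these whole-class alternatives.

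Among the genes reported, those that changed direction were, in IgG, Lyz2 at 0.781 with an upper bound of 25%; Sdha at 0.566 with the lower bound of 20%; C1qa at 0.403, Lyz2 at 0.397, Tyrobp at 0.328 and C1qc at 0.399 weighted equally; Btg2 at 0.598, Pfkfb3 at 0.872, Tipin at 1.27 and Airn at 0.770 at 5000 to 20000 UMIs; and Airn at 0.683, Lyz2 at 0.518 and Tyrobp at 0.493 with members of 10 to 15%. In aPD-1 they were Gbas at 1.24 and Il1rl1 at 0.784 with the lower bound of 20%, and Pfkfb3 at 0.792 and Mcl1 at 0.793 at 5000 to 20000 UMIs. The cause was not tested.

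High-mt barcodes were 6.09% of IgG barcodes with a floor of 500 UMIs, and 3.89% and 2.36% with a floor of 5000. At resolution 1.0 the cluster with most of them held 48.3% and 45.4%. Depth limits genes of few UMIs, whose intervals are wide.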
